A study of Mus musculus with 6 samples.

Results

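The 46 genes described here encode the enzymes that methylate histone lysines or remove the methyl groups. They comprise 28 methyltransferase genes, called writers, and 18 demethylase genes, called erasers. They were listed by name and sorted by direction and by the residue on which each enzyme is best known to act. All 46 were among the 15184 genes that passed the filter on low counts, out of 45706 genes in the deposited table.

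Writers transfer methyl groups from S-adenosylmethionine to lysines of histones H3 and H4, most of them through a SET domain, whereas Dot1l has a different catalytic fold. Erasers reverse this either through a flavin-dependent oxidation (Kdm1a and Kdm1b) or through a jumonji domain that needs iron and α-ketoglutarate. Methylation of H3K4 marks promoters and enhancers of active genes, and H3K36 and H3K79 methylation accompany transcribed gene bodies. Trimethylation of H3K9, H3K27 and H4K20 is mostly linked to silent chromatin. In blood stem cells several of these enzymes, Kmt2a and Ezh2 among them, are known regulators of self-renewal and differentiation.

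RNA came from sorted LSK cells, the Lin- Sca-1+ c-Kit+ fraction of the bone marrow that holds stem cells and multipotent progenitors, from 3 Ctrl and 3 cKO mice with 1 library per mouse. All were C57BL/6 males of 16 weeks, apart from cKO mouse 3 with 17 weeks, and the study describes them as littermates. All carried 1 Rosa26-Cre-ERT2 allele (RC/+), which is active in nearly every tissue and therefore not restricted to blood cells. Ctrl mice had 1 conditional Setd1b allele (Setd1b HET, FD/+) and cKO mice had 2 (Setd1b HOM, FD/FD), so that Ctrl mice too were given tamoxifen and had 1 allele open to recombination. By the labels, tamoxifen was given by gavage at 4.5 mg per day for 4 days and, after a pause of 3 days, for 2 more days, and mice were sacrificed 3 days after the last dose.

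Total counts per library lay between 13003573 and 21277519, and counts of single members between 242 and 13988. Of the markers of the gate, Kit was at 452 ± 59.5 CPM in Ctrl and 440.0 ± 24.7 CPM in cKO (CPM, counts scaled to the library size by TMM; SD, n = 3), and Ly6a, which encodes Sca-1, at 44.4 ± 10.4 and 38.1 ± 2.04 CPM. Of the genes whose products are used to remove mature cells, Cd3e, Cd8a and Ly6g had at most 2 counts in any library. Itgam, which encodes CD11b, had 468 to 870 counts and was called higher in cKO (log2 fold change 0.43, adjusted p = 0.0192 by edgeR). The call of Itgam was lost without Ctrl mouse 1, Ctrl mouse 2, cKO mouse 1 or cKO mouse 2. Cd4 had 17 to 49 counts in Ctrl and 45 to 53 in cKO, without overlap in CPM and not past the threshold (adjusted p = 0.134 by edgeR). Lineage markers differed between the groups. Of 8 granulocyte and monocyte genes, 7 were called lower in cKO, and their summed level ranged from 2866 to 3471 CPM in Ctrl and from 476 to 771 CPM in cKO. Of 7 lymphoid genes tested, 4 were called lower. The summed level of all 8 listed lymphoid genes was 441 to 1023 CPM in Ctrl against 106 to 156 CPM in cKO. Of 5 erythroid genes tested, 3 were called lower. The summed level of all 7 listed erythroid genes was 115 to 157 CPM in Ctrl against 37.4 to 46.2 CPM in cKO. Of the genes of stem cells, Procr and Mecom were called higher. In bulk RNA, fewer cells of a type and less RNA per cell cannot be told apart, and the part of cell composition in the values below was not tested. Numbers given to the libraries in the table's header fall into 2 runs. Library group 1 holds Ctrl mouse 1 and cKO mice 1 and 2, and library group 2 holds Ctrl mice 2 and 3 and cKO mouse 3. Nothing states what these groups are.

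Setd1b, the targeted gene, encodes an H3K4 methyltransferase of the Set1 class. It lies on chromosome 5 of the mouse build mm10, from 123142193 to 123168629. Cre removes exon 5 of the conditional allele. The sequence below belongs to transcript Setd1b-204, which has 17 exons. It is the stretch of exon 6 at chr5:123147615-123147641, plus strand, and is shown because the reading frame without exon 5 ends there, at the stop codon in capitals.
Setd1b exon 6, new stop: agtcacccccaaTAGcggtgggacccc

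With 113 bases, exon 5 is not a multiple of 3 in length, and the frame read without it ends 80 bases into exon 6. The reading frame has 1985 codons with exon 5 and 207 without it, and the last of the 207, in exon 6, are read in a shifted frame. The SET domain is encoded near the 3′ end of the gene, after that stop. The exon makes up 0.936% of the 12068 exon bases over which the deposited counts were summed, so that a gene count holds almost no reads from the removed part.

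**Figure D1:**
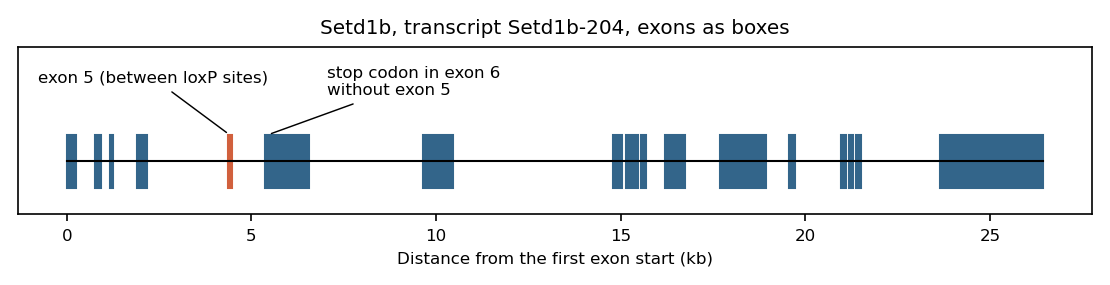
Exon structure of Setd1b (transcript Setd1b-204), with the distance from the start of the first exon in kb on the x axis and each of the 17 exons as a box to scale. Exon 5 (orange, 113 bases) and the stop codon met in exon 6 without it lie in the first 6 kb, and the larger part of the exon sequence lies after them.

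The total count of Setd1b was not lower in the libraries labelled cKO. It was at 221, 194 and 223 CPM in Ctrl mice 1, 2 and 3 and at 272, 288 and 314 CPM in cKO mice 1, 2 and 3. Every library labelled cKO was above every Ctrl library. The log2 fold change was 0.46 (SE 0.073, adjusted p = 0.00146 by the quasi-likelihood test of edgeR), which corresponds to 1.37-fold. It was 0.34 in library group 1 and 0.60 in library group 2. Since the count goes against the labels and exon 5 is hardly represented in it, the count does not check the genotype, and all directions below are those of the libraries labelled cKO against Ctrl. Counts per exon were not analysed here.

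Of the 46 members, 1 was called higher in cKO (Setd1b) and 1 lower (Kmt5a) at an adjusted p under 0.05 (quasi-likelihood test of edgeR, adjusted after Benjamini and Hochberg over all genes tested). Over all genes tested, 3.88% were called higher and 3.79% lower, so that the members' counts of 1 and 1 were near that background. The median log2 fold change of the members was 0.05, against 0.00023 for all genes tested. Precision was high for these genes. The standard errors of their log2 fold changes lay between 0.058 and 0.12 with a median of 0.071, against a median of 0.13 for all genes. For 26 of 46 members the 95% interval of the fold change lay within 1.2-fold in both directions, where the share was 17.4% over all genes, and for 45 of 46 it lay within 1.5-fold (59.5% over all genes). The exception at 1.5-fold was Setd1b. At an unadjusted p under 0.05, 13 members differed, against 22.9% of all genes tested. With DESeq2's Wald test 2 members were called higher (Setd1b and Kmt2a), where 4.23% of all genes were, and likewise 2 without a filter on low counts (3.12% of all genes). Without Ctrl mouse 1 the count was 4 (Setd1b, Kmt2a, Kdm5b and Kdm7a; 3.39% of all genes). With the trend of each library against exon length removed, 2 members were called lower (Kmt5a and Suv39h1; 5.55% of all genes), and at a threshold of 0.01 the count of members called lower was 0 by edgeR, where it was 1.79% of all genes.

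**Figure D2:**
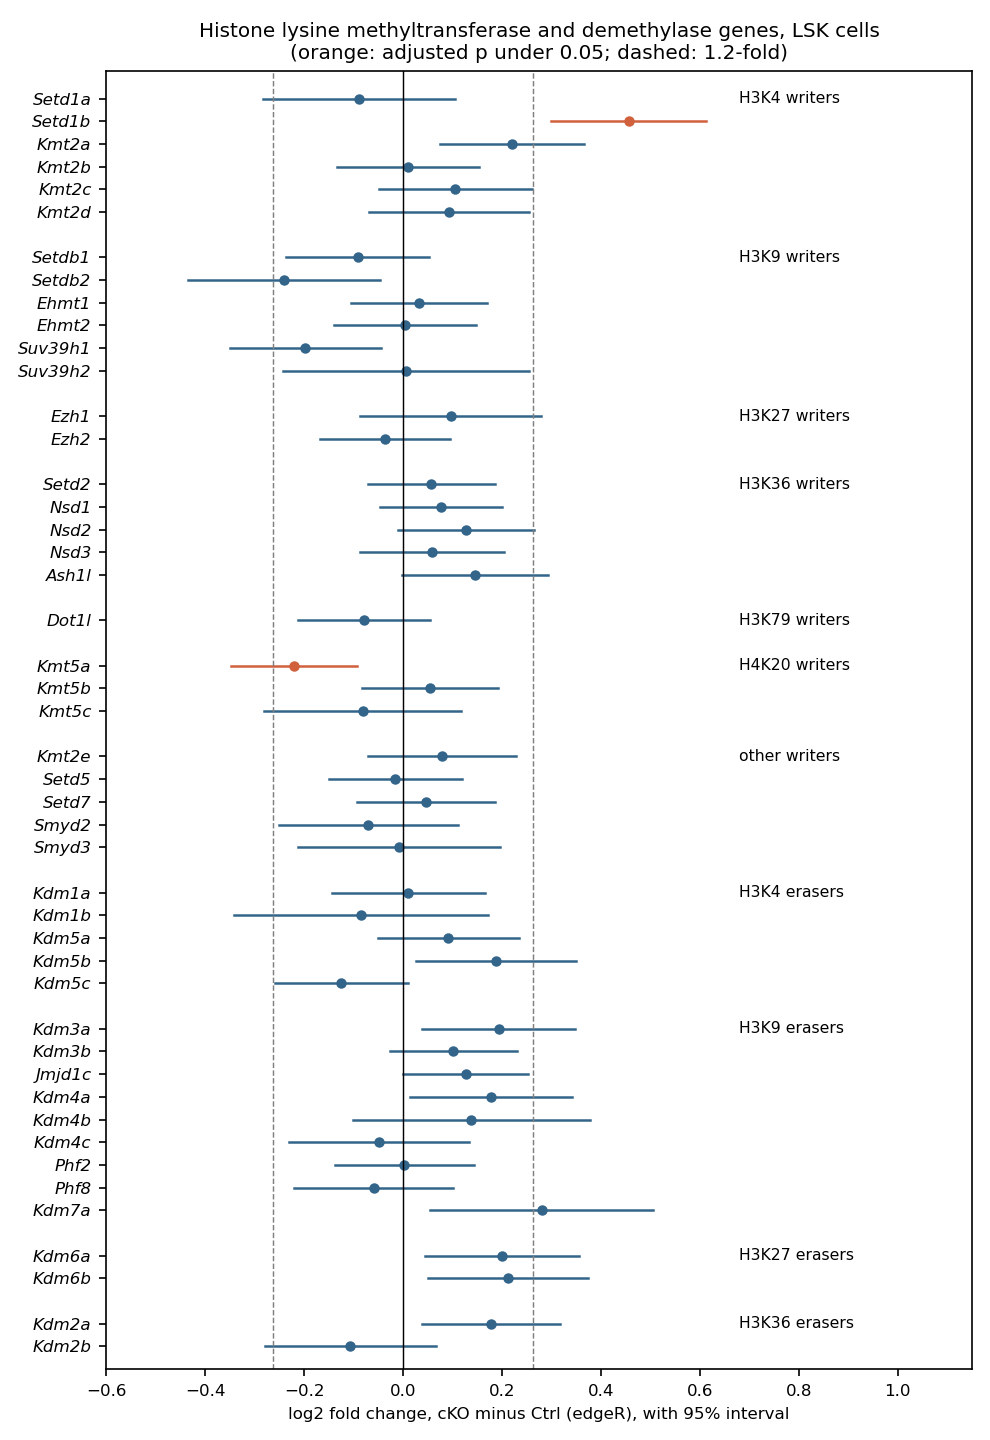
Log2 fold change of cKO minus Ctrl for each of the 46 genes (points) with its 95% interval (lines) from edgeR over 3 Ctrl and 3 cKO libraries, sorted by residue and direction; "other writers" are Kmt2e, Setd5, Setd7, Smyd2 and Smyd3. Setd1b (0.46) and Kmt5a (-0.22) are past the threshold (orange), and the intervals of 26 genes lie between the dashed lines at 1.2-fold.

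The 6 H3K4 writers of the Set1/Trithorax family differed in their levels. Per length, in CPM per kilobase of exon, Kmt2d was highest in Ctrl with 37.2 ± 3.46 (SD, n = 3), followed by Kmt2a with 32.0 ± 2.31. These levels differed by less than the sum of their SDs, but Kmt2d was above Kmt2a within every Ctrl and cKO library. In Ctrl mice 1, 2 and 3 Kmt2d was at 40.4, 33.5 and 37.5 and Kmt2a at 34.6, 30.2 and 31.2. Setd1b (17.6 ± 1.34) and Kmt2c (17.0 ± 1.83) did not differ beyond their spread, Kmt2b stood at 13.6 ± 0.609, and Setd1a was lowest at 5.77 ± 0.44, below the median gene tested (6.33). Kmt2d and Kmt2c are the paralogs that act mainly at enhancers, Kmt2a and Kmt2b act at promoters of developmental genes, and Setd1a and Setd1b form the Set1 class. Setd1b made up 14.3% ± 0.609 of the summed per-length level of the 6 genes in Ctrl and 17.4% ± 0.40 in cKO, and the summed level was 123 ± 8.61 in Ctrl and 138 ± 7.10 in cKO.

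Of the other 5 genes, none passed the threshold. Setd1a, the closest relative of Setd1b, was at 35.9, 41.7 and 40.1 CPM in Ctrl mice 1, 2 and 3 and at 38.3, 36.6 and 35.9 CPM in cKO mice 1, 2 and 3. The groups overlapped, and the 95% interval of the log2 fold change of Setd1a ran from -0.28 to 0.11. Kmt2a, the gene known as MLL1 that is essential for adult blood stem cells, was at 577, 504 and 520.3 CPM in Ctrl and 590.2, 617 and 658 CPM in cKO. These groups did not overlap, although the highest Ctrl value and the lowest cKO value of Kmt2a, both from library group 1, were close. Its log2 fold change was 0.22 (SE 0.068, adjusted p = 0.0627 by edgeR), with 0.06 in library group 1 and 0.36 in library group 2. Without Ctrl mouse 1 it was 0.28 and past the threshold (adjusted p = 0.0246 by edgeR). With the length trend removed it was 0.11 (adjusted p = 0.323 by edgeR), and Kmt2a passed the threshold in 3 of 14 alternatives. For Kmt2b, Kmt2c and Kmt2d the log2 fold changes were 0.01, 0.11 and 0.09, and in each the groups overlapped. The intervals of these log2 differences ended at 0.15, 0.26 and 0.25.

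**Figure D3:**
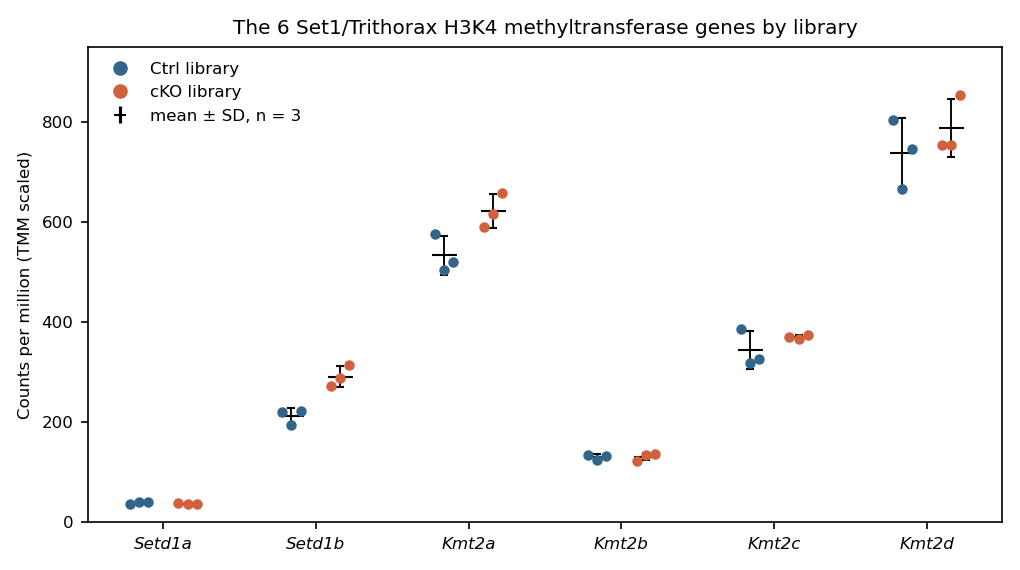
CPM (TMM scaled, y axis from 0) of the 6 H3K4 writers in each Ctrl (blue) and cKO (orange) library, with the mean and SD of 3 mice. The cKO libraries are above all Ctrl libraries for Setd1b (272 to 314 against 194 to 223) and Kmt2a (590.2 to 658 against 504 to 577) and mixed with them for the other 4 genes; levels in CPM are not corrected for length and are not to be compared between genes.

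The proteins that assemble with these enzymes gave no called gene. Of 13 listed subunits of Set1 and Trithorax complexes, 12 were tested and 0 were called in edgeR or in DESeq2, and their median log2 fold change was -0.004. At an unadjusted p under 0.05 the count by edgeR was 0 as well. The core subunits Wdr5, Rbbp5, Ash2l and Dpy30 had log2 fold changes of -0.14, 0.03, -0.03 and -0.13. For Cxxc1 and Wdr82, which are particular to the Set1 complexes, the log2 fold changes were 0.01 and 0.01. Menin, encoded by Men1 and a partner of Kmt2a and Kmt2b, stood at 0.16 (adjusted p = 0.263 by edgeR).

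Kmt5a, also known as Pr-Set7 or Setd8, is the enzyme that monomethylates H4K20, and it is needed for chromosome compaction and for orderly replication. It was the only member called lower. Its gene lies on chromosome 5 from 124439930 to 124462308 (mm10, plus strand). Its levels were 243, 237 and 244 CPM in Ctrl mice 1, 2 and 3 and 207, 213 and 201 CPM in cKO mice 1, 2 and 3. The Ctrl libraries lay close together, and every cKO library was lower than each of them. The log2 fold change of Kmt5a was -0.22 (SE 0.06, adjusted p = 0.0355 by edgeR), a Ctrl level 1.17-fold that of cKO. The log2 difference was -0.21 in library group 1 and -0.26 in library group 2. The call was lost whenever any mouse was left out, with adjusted p-values between 0.0591 and 0.101 and log2 fold changes between -0.24 and -0.20.

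Per length, Kmt5a had the second highest level of all 46 genes in Ctrl (45.5 ± 0.664), after the H3K36 writer Nsd1 (47.0 ± 1.1). It made up 69.6% ± 0.833 of the summed per-length level of the H4K20 writers in Ctrl and 66.7% ± 1.41 in cKO. The pair that adds further methyl groups to H4K20 was not called. Kmt5b had a log2 fold change of 0.05 and Kmt5c of -0.08, and the groups overlapped in both. Setd1b and Kmt5a lie on the same chromosome, with 1271301 bases between the end of the first and the start of the second, and Kdm2b lies 152370 bases in front of Setd1b. Around Setd1b, within 2 Mb to either side, 9 of 99 tested genes were called (9.09%), close to the 7.67% of all genes. The 9 include Setd1b and Kmt5a themselves, so that the share is not one of their neighbours alone. This window was chosen after the positions of the called members had been seen.

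The H3K9 writers place the mark of heterochromatin. Suv39h1, which trimethylates H3K9 at pericentromeric repeats, was at 79.4, 76.8 and 78.6 CPM in Ctrl and 70.1, 70.1 and 64.5 CPM in cKO. Setdb2 was at 45.4, 45.6 and 45.8 CPM in Ctrl and 39.3, 41.9 and 34.6 CPM in cKO. Neither gene overlapped between the groups, yet neither passed the threshold, with log2 fold changes of -0.20 for Suv39h1 (adjusted p = 0.11) and -0.24 for Setdb2 (adjusted p = 0.127, both by edgeR). Suv39h1 was called lower when the trend of each library against exon length was removed (adjusted p = 0.0385 by edgeR). Setdb1, which silences endogenous retroviruses, had a log2 fold change of -0.09 without overlap of the groups. The euchromatic enzymes Ehmt1 and Ehmt2, which act as a heterodimer, had log2 fold changes of 0.03 and 0.0037 (95% interval of Ehmt2 -0.14 to 0.15). The log2 fold change of Suv39h2 was 0.01, on the lowest level of this group per length (4.10 ± 0.12 in Ctrl).

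Of the H3K27 writers, Ezh2 is the main catalytic subunit of Polycomb repressive complex 2 and Ezh1 its alternative. Ezh2 was at 214, 223 and 230.0 CPM in Ctrl and 224, 209.5 and 217 CPM in cKO, with overlap and a log2 fold change of -0.04 (95% interval -0.17 to 0.10). Ezh1 had a log2 fold change of 0.10 (95% interval -0.09 to 0.28), and its cKO libraries were above its Ctrl libraries. Ezh2 made up 86.3% ± 1.17 of the summed per-length level of both genes in Ctrl and 85.2% ± 0.35 in cKO. Of 11 PRC2 subunits and partners, 1 was called, namely Jarid2, which directs the complex to its targets, with 86.5 ± 5.83 CPM in Ctrl and 105 ± 4.58 CPM in cKO (SD, n = 3; log2 fold change 0.28, adjusted p = 0.028 by edgeR). Jarid2 was past the threshold in 8 of 14 alternatives and in 1 of the 6 fits that left out a mouse, the fit without Ctrl mouse 2.

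The H3K36 writers had the highest summed per-length level of all groups, with 145 ± 4.96 in Ctrl and 154 ± 1.31 in cKO. All 5 were fitted above 0, with log2 fold changes between 0.06 and 0.15, and none passed the threshold. With the length trend removed, Setd2 (-0.023), Nsd1 (-0.017) and Nsd3 (-0.050) were fitted below 0. Nsd1 was at 616, 598 and 587 CPM in Ctrl and 619, 643 and 637 CPM in cKO, without overlap. Nsd2 was at 384, 383 and 394 CPM in Ctrl and 457, 397 and 414 CPM in cKO, also without overlap. Setd2, the enzyme that trimethylates H3K36 behind RNA polymerase II, had a log2 fold change of 0.06 (95% interval -0.07 to 0.19), and for Ash1l, which opposes Polycomb silencing, it was 0.15 (95% interval -0.0017 to 0.29). Dot1l, the H3K79 writer, was at 149, 140 and 141 CPM in Ctrl and 138, 134 and 135 CPM in cKO. The log2 fold change of Dot1l was -0.08 (adjusted p = 0.499 by edgeR). Of 6 genes of its complex and the AF9/ENL family, 1 was called, Aff4, a scaffold of the super elongation complex (log2 fold change 0.24, adjusted p = 0.0254 by edgeR). Aff4 was past the threshold in 9 of 14 alternatives, and its call was lost with the length trend removed, where the log2 fold change was 0.14, and without Ctrl mouse 2, Ctrl mouse 3, cKO mouse 1 or cKO mouse 2.

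The 5 writers whose substrate is unsettled or mainly not a histone stayed near 0. Their log2 fold changes ran from -0.07 for Smyd2 to 0.08 for Kmt2e, the 95% interval lay within 1.2-fold for all 5, and the groups overlapped in each.

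Most erasers were fitted above 0 in cKO, but no eraser was called. Of 18, 13 were fitted above 0, where 7600 of 15184 genes tested were. At an unadjusted p under 0.05 by edgeR, 8 erasers differed, all 8 of them higher in cKO. Over all genes tested, 11.3% were higher at that unadjusted level and 11.5% lower. The median log2 fold change was 0.11 for the erasers and 0.02 for the writers. At the adjusted threshold the count of erasers was 0 in edgeR, 0 in DESeq2 and 2 without Ctrl mouse 1 (Kdm5b and Kdm7a). The 8 genes were Kdm5b, Kdm3a, Jmjd1c, Kdm4a, Kdm7a, Kdm6a, Kdm6b and Kdm2a, with adjusted p-values between 0.107 and 0.217 by edgeR.

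Exon length is set beside these values, and its part in them was not tested. The median exon length of the members was 8431.5 bases, which exceeded that of 90.6% of the genes tested, and 45 of 46 members were longer than the median gene of 3330.5 bases. Among the 1433 genes longer than the median member, the median log2 fold change was 0.06, and 21.9% were higher in cKO at an unadjusted p under 0.05 against 8.72% lower. With the trend of each library against exon length removed, the erasers higher at an unadjusted p under 0.05 fell from 8 to 0 and their median log2 fold change was 0.03, while that of the writers was -0.05 and that of all genes -0.02. The number of erasers fitted above 0 was then 10 of 18, against 13 in the main fit. The median exon length was 9390 bases for the writers and 7111 for the erasers. The difference between the medians of writers and erasers was not tested, with or without the length trend. In library group 1 the median log2 difference of the erasers was 0.01 and in library group 2 it was 0.15.

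By residue, the H3K27 erasers had the largest median log2 fold change (0.21). Kdm6a (also called Utx) was at 60.6, 58.9 and 60.8 CPM in Ctrl and 66.7, 68.6 and 71.8 CPM in cKO. Kdm6b (Jmjd3) was at 75.8, 72.1 and 75.5 CPM in Ctrl and 80.5, 83.9 and 94.2 CPM in cKO. In both genes all cKO libraries were above all Ctrl libraries, with log2 fold changes of 0.20 for Kdm6a (adjusted p = 0.114) and 0.21 for Kdm6b (adjusted p = 0.107, both by edgeR). Their 95% intervals lay within 1.5-fold.

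Among the 9 H3K9 erasers, 4 had an unadjusted p under 0.05. Kdm3a was at 60.5, 62.2 and 58.6 CPM in Ctrl and 67.7, 68.7 and 71.0 CPM in cKO. Jmjd1c, of the same family, was at 297, 280 and 278 CPM in Ctrl and 314, 311 and 307 CPM in cKO. Neither overlapped, and the log2 fold changes were 0.19 for Kdm3a and 0.13 for Jmjd1c. Kdm4a, which acts on trimethylated H3K9 and H3K36, had a log2 fold change of 0.18 without overlap. Kdm7a had the largest log2 fold change after Setd1b (0.28, SE 0.11), yet its groups overlapped, since Ctrl mouse 1 was at 38.6 CPM and cKO mouse 1 at 38.3 CPM. Its relatives Phf2 and Phf8 had log2 fold changes of 0.0027 and -0.06.

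The H3K4 erasers act against the mark that Setd1b places, and their summed per-length level was 69.3 ± 2.42 in Ctrl and 69.3 ± 1.93 in cKO (SD, n = 3). Within the group the members differed. Kdm5b was at 130, 106 and 116 CPM in Ctrl and 131, 131 and 139 CPM in cKO, with a log2 fold change of 0.19 (adjusted p = 0.152 by edgeR). The X-linked Kdm5c was at 151, 145 and 153 CPM in Ctrl and 131, 142 and 139 CPM in cKO, with -0.12 (adjusted p = 0.26 by edgeR). Kdm5b and Kdm5c thus lay on opposite sides of 0, each without overlap of the groups. For Kdm5b the highest Ctrl and the lowest cKO value were close, and its log2 difference was 0.01 in library group 1 and 0.32 in library group 2. The log2 fold change of Kdm5b was 0.12 without Ctrl mouse 2 and 0.08 with the length trend removed. Kdm1a, the demethylase of the CoREST complex, had a log2 fold change of 0.01 (95% interval -0.14 to 0.17). Kdm1b had -0.08 and Kdm5a 0.09. Of 10 genes of the LSD1-CoREST complex 1 was called, Phf21a, whose product binds unmethylated H3K4 (log2 fold change 0.24, adjusted p = 0.0474 by edgeR). It was past the threshold in 4 of 14 alternatives. Of the H3K36 erasers, Kdm2a was at 213, 204 and 189 CPM in Ctrl and 227, 238 and 221 CPM in cKO (log2 fold change 0.18). Its paralog Kdm2b had a log2 fold change of -0.11 with overlap.

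**Figure D4:**
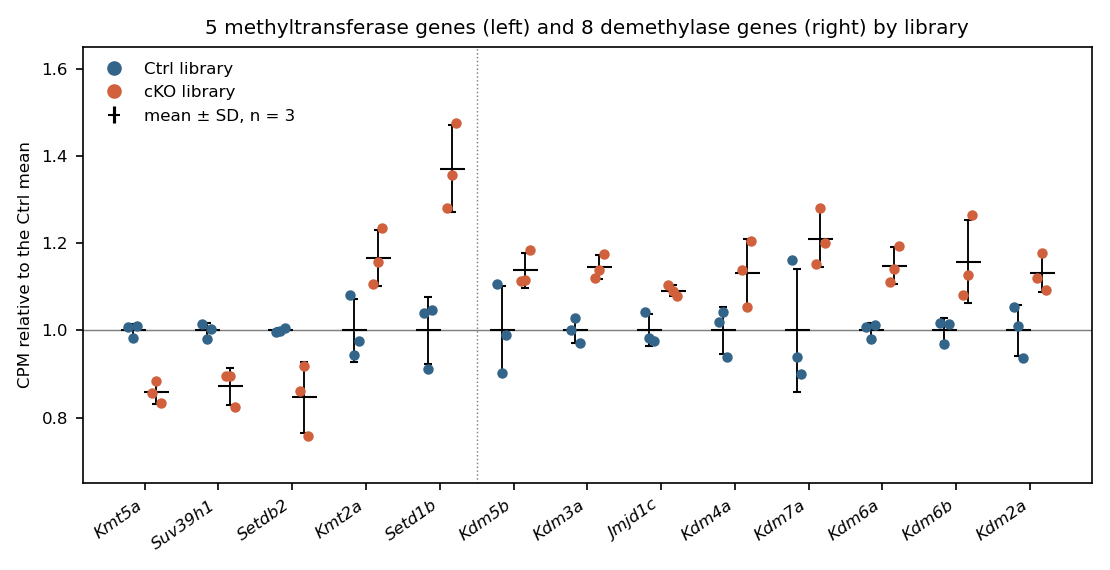
CPM of each library divided by the mean of the 3 Ctrl libraries, for the 13 members with an unadjusted p under 0.05, namely 5 writers (left; 3 lower and 2 higher in cKO) and 8 erasers (right; all higher), in Ctrl (blue) and cKO (orange), with mean and SD of 3 mice; the y axis does not start at 0. The genes were drawn for this difference; the cKO libraries lie apart from the Ctrl libraries in all of them except Kdm7a, and Kmt5a and Setd1b passed the adjusted threshold.

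Over all members, groups did not overlap for 19 genes, 13 higher and 6 lower in cKO. The share of all genes tested without overlap was 27.3%, with 14% higher and 13.4% lower. The log2 difference had the same sign in both library groups for 30 of 46 members and for 9576 of 15184 genes tested. The median log2 difference of the members was -0.03 in library group 1 and 0.09 in library group 2.

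The balance between close relatives was also taken within each library, where scaling cancels out. Of 25 pairs of paralogs, 10 had ratios that did not overlap between the groups. For single genes the share without overlap was 27.3% of all genes tested, and no such share was computed for other gene pairs. Several of the pairs share a gene, so that the 10 are not independent of each other. An exact permutation test of 3 mice against 3 cannot give a two-sided p below 0.1, and the smallest value adjusted over the 25 pairs was 0.25, so that no pair could pass the threshold. The largest change was that of Setd1b to Setd1a. This per-length ratio was 3.47, 2.62 and 3.13 in Ctrl mice 1, 2 and 3 and 4.00, 4.44 and 4.92 in cKO mice 1, 2 and 3. The log2 ratio was higher by 0.54 in cKO (exact permutation p = 0.1, two-sided), with 0.28 in library group 1 and 0.78 in library group 2. Setd1b counts do not tell transcripts with exon 5 from those without it, so this ratio is not one of intact enzymes. The ratio of Kmt2a to Kmt2b was 2.45, 2.33 and 2.26 in Ctrl and 2.75, 2.64 and 2.78 in cKO, again without overlap.

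The ratio of Kdm5b to Kdm5c was 0.336 ± 0.0292 in Ctrl and 0.418 ± 0.0181 in cKO (SD, n = 3). Kdm5a to Kdm5c showed a similar order, with 0.665 ± 0.0424 and 0.773 ± 0.0327. The ratios of Phf2 and of Phf8 to Kdm7a were lower in cKO in every library, at 5.68 ± 0.541 against 4.66 ± 0.153 and 1.86 ± 0.221 against 1.46 ± 0.0632. The ratio of Suv39h1 to Suv39h2 was 3.62 ± 0.0445 in Ctrl and 3.16 ± 0.294 in cKO. By contrast, the ratio of Kdm6b to Kdm6a was 1.45 ± 0.0159 and 1.46 ± 0.0672, and that of Kmt2c to Kmt2d 0.457 ± 0.0242 and 0.462 ± 0.0289. In these last pairs the groups overlapped.

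**Figure D5:**
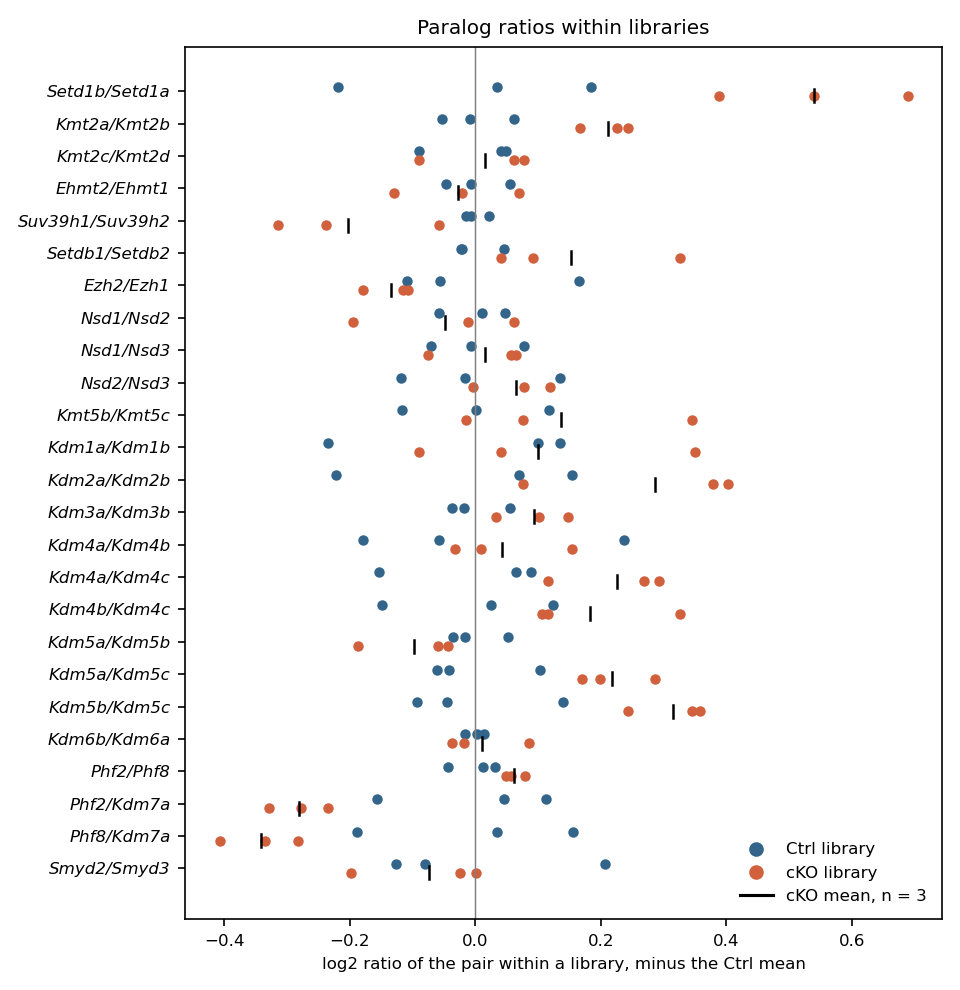
Log2 ratio of the counts of each paralog pair within a library, minus the mean of the Ctrl libraries, for Ctrl (blue) and cKO (orange) mice; bars mark the cKO mean of 3 mice. The shift is largest for Setd1b/Setd1a (0.54), and in 10 of 25 pairs all cKO libraries lie to one side of all Ctrl libraries. Several pairs share a gene, and the share for other gene pairs was not computed.

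The members shared features that their choice did not use. Their levels were high, with 38 of 46 above the median gene per length (median 15.2 in Ctrl against 6.33, in CPM per kilobase of exon). Their values varied little between mice, with a median SD of the log2 level of 0.057 in Ctrl against 0.145 over all genes. Levels per length spanned from 3.30 ± 0.466 for Kdm7a to 47.0 ± 1.1 for Nsd1 in Ctrl. Promoter windows of 300 bases around annotated starts (RefSeq, GRCm38.p6) were given for 33 of the 46 genes, with 45 windows. Of these, 41 had a ratio of observed to expected CpG above 0.6 (91.1%), against 35.8% of 32851 windows of all genes, and the median number of CpG was 28 against 7. The GC box GGGCGG, on either strand, was found in 68.9% of the member windows and 35.7% of all windows. For CCAAT the shares were 33.3% and 37.4%, and for ATGGCG, a core of YY1 motifs, 22.2% and 8.93%. Such matches describe the letters in these windows only. The comparison windows came from 27025 genes and were not limited to genes tested in these cells. Some members had several windows.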

How the data were processed

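RNA-seq libraries of LSK cells from 3 Ctrl and 3 cKO mice were made with a stranded total RNA kit for low input. The authors aligned the reads to mm10 with GSNAP and counted those on the strand of each gene with featureCounts (1.5.0) on Ensembl models, per the submitters' processing notes and methods. The deposited values are raw counts per gene, with neither normalization nor pooling. Symbols came from GENCODE M21 by identifier (98.8% of the genes), and exon length from the deposited table. All per-sample columns were matched to mice by name.

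Genotypes were compared in R 4.3.3 with edgeR 4.0.16 (TMM, filterByExpr, quasi-likelihood test, genotype as the only term, all 6 libraries). P-values were adjusted by Benjamini and Hochberg over 15184 genes, with a threshold of 0.05, and 95% intervals used the moderated degrees of freedom. P-values measure the spread between 3 mice per group. CPM used TMM factors (0.945 to 1.03), and per-length levels were CPM per kilobase of exon. Paralog ratios were compared by two-sided exact permutation tests, on log2 counts with a prior count of 2. Levels summed by residue were not tested. The procedure was tested on simulated data.

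The members, residue groups, paralog pairs and other gene lists were chosen with earlier results of these data known. Every member could be named. Of each other list, at most 3 genes past the threshold were to be named, by smallest adjusted p, and further names (the Set1/Trithorax subunits, the gate and lineage markers and the remaining cofactor enzymes) were given after their values had been seen. The alternatives were the size factors of DESeq2 1.42.0, its Wald test, no filter, a minimum of 10 counts per library, removal of length or GC trends (loess, span 0.3), removal of 394 mitochondrial, ribosomal RNA and dominant genes, the library group as a covariate, a threshold of 0.01, and leaving out each mouse. The number of tamoxifen doses differs between the labels and the study's text, and the labels were followed. Some items are not reported here.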

Additional observations from a re-analysis of the deposited data

How the results depend on the processing

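The higher count of Setd1b in the libraries labelled cKO was past the threshold in all 14 alternatives, with log2 fold changes from 0.37 to 0.50. The number of members called higher was 2 with DESeq2's Wald test and 2 without a filter on low counts (Setd1b and Kmt2a), and 1 to 4 when a mouse was left out. The number called lower was 2 with the length trend removed, 0 at a threshold of 0.01, and 0 in each of the 6 fits without a mouse. Over all genes, 513 were called at a threshold of 0.01 and 604 to 1125 without a mouse. Without Ctrl mouse 3, cKO mouse 2 or cKO mouse 3 the counts were 665, 604 and 739, and the cause was not tested. No paired analysis was possible because the labels give mouse names only and no replicate numbers shared between the groups, and although the mice were littermates, the sources used here do not say which of them shared a litter.

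Members whose fitted log2 fold change crossed 0 were uncalled under every alternative. With the length trend removed these were Kmt2b (-0.062), Kmt2c (-0.020), Kmt2d (-0.033), Ehmt1 (-0.034), Ehmt2 (-0.057), Suv39h2 (-0.037), Setd2 (-0.023), Nsd1 (-0.017), Nsd3 (-0.050), Kmt5b (-0.047), Setd7 (-0.036), Kdm1a (-0.045), Kdm5a (-0.0072) and Phf2 (-0.055). With the GC trend removed they were Kmt2b (-0.027), Ehmt2 (-0.037), Suv39h2 (-0.0072), Kdm1a (-0.00090) and Phf2 (-0.027). With the library group as a covariate they were Kdm1a (-0.033) and Phf2 (-0.017). With DESeq2's size factors they were Ehmt2 (-0.00069) and Phf2 (-0.0016), and with its Wald test Ehmt2 (-0.00050) and Phf2 (-0.0012). Without a mouse the ranges were -0.027 to 0.054 for Kmt2b, -0.0060 to 0.076 for Ehmt1, -0.043 to 0.043 for Ehmt2, -0.032 to 0.058 for Suv39h2, -0.056 to 0.017 for Setd5, -0.0014 to 0.093 for Setd7, -0.13 to 0.020 for Smyd2, -0.098 to 0.049 for Smyd3, -0.042 to 0.061 for Kdm1a, -0.15 to 0.013 for Kdm1b and -0.017 to 0.036 for Phf2. The log2 change of the ratio of Setd1b to Setd1a lay between 0.43 and 0.63 without a mouse.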

Other observations

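Of 15 genes whose products supply or consume the cofactors of these enzymes, 5 were called lower in cKO and 0 higher by edgeR (10 lower and 0 higher at an unadjusted p under 0.05; 7 lower and 0 higher by DESeq2), where 3.79% of all genes were called lower, and their median log2 fold change was -0.23. Mthfd1, which interconverts folate carriers of methyl groups in the cytosol, was at 215 ± 10.7 CPM in Ctrl and 163 ± 4.77 CPM in cKO (SD, n = 3), with a log2 fold change of -0.40 (adjusted p = 0.0014 by edgeR). Mthfd2, its mitochondrial relative, was at 45.8 ± 3.51 and 33.3 ± 1.32 CPM (-0.46, adjusted p = 0.0061 by edgeR). Both passed the threshold in all 14 alternatives. Idh3a, a subunit of the enzyme that makes α-ketoglutarate in the citric acid cycle, was at 151 ± 2.90 and 125 ± 5.42 CPM (-0.27, adjusted p = 0.0148 by edgeR) and passed it in 11 of 14. The other two called lower were Shmt1 and Shmt2, with 8 and 10 of 14. Mat2a, which makes S-adenosylmethionine, had -0.22 (adjusted p = 0.0569 by edgeR). Leaving out a mouse left between 2 and 5 of these genes called, with 2 without Ctrl mouse 3 and 2 without cKO mouse 2. Granulocyte, lymphoid and erythroid marker levels were lower in the same libraries, and their part in these values was not tested.

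Of 7 protein arginine methyltransferases tested, 2 were called lower, Carm1 (104 ± 3.10 CPM in Ctrl, 87.5 ± 4.87 CPM in cKO; log2 fold change -0.25, adjusted p = 0.036) and Prmt5 (129 ± 4.43 and 109 ± 6.26 CPM; -0.24, adjusted p = 0.04, both by edgeR). Both calls were lost without Ctrl mouse 2, without Ctrl mouse 3 and without each cKO mouse in turn, and 1 of them without Ctrl mouse 1 (Prmt5) and with the library group as a covariate (Carm1).

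Of other genes with a SET or jumonji domain, Mecom and Prdm16 were called higher. Mecom, a zinc finger factor with a PR domain that maintains blood stem cells, was at 64.2 ± 3.37 CPM in Ctrl and 87.8 ± 8.03 CPM in cKO (log2 fold change 0.45, adjusted p = 0.0032 by edgeR), and it was past the threshold in all 14 alternatives. Prdm16, of the same family, was at 19.4 ± 1.21 and 26.6 ± 1.86 CPM (0.46, adjusted p = 0.0196 by edgeR). Prdm16 was past the threshold in 10 of the 14 alternatives, with adjusted p-values by edgeR or DESeq2 between 0.00809 and 0.0824. Of 16 readers of H3K4 and H3K36 methylation, 1 was called, Phf6, with a log2 fold change of 0.28 (adjusted p = 0.0453 by edgeR; past the threshold in 6 of 14 alternatives). Of 10 partners and readers of H3K9 methylation, 0 were called by edgeR or DESeq2, and 0 had an unadjusted p under 0.05.

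In the remaining marker lists, 3 of 5 mast cell and basophil genes, 1 of 5 megakaryocyte genes and 3 of 4 stromal and endothelial genes were called lower, with 1 stromal and endothelial gene called higher (Kdr, whose call was lost without cKO mouse 2). Of 13 proliferation genes, 1 was called lower by edgeR (Mcm5), and their median log2 fold change was -0.0072. Mcm5 was at 343, 347 and 361 CPM in Ctrl mice 1, 2 and 3 and at 171, 329.8 and 155 CPM in cKO mice 1, 2 and 3, so that cKO mouse 2 was close to Ctrl. The log2 fold change of Mcm5 was -0.68 (adjusted p = 0.0416 by edgeR) and -1.10 without cKO mouse 2, and the call was lost by DESeq2 and without any other mouse. Of 3 tested lineage cocktail genes, 1 was called higher, Itgam, at 37.7 ± 2.18 CPM in Ctrl and 50.7 ± 7.12 CPM in cKO (past the threshold in 10 of 14 alternatives).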
